A study of Homo sapiens with 6 samples.

Results

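SQSTM1 encodes sequestosome 1, better known as p62, and its RNA was measured with and without SSD in AGS, an established cell line from a human gastric adenocarcinoma. SSD is saikosaponin-D, a triterpenoid saponin of Radix Bupleuri. The gene is the row of the deposited expression table that carries the symbol SQSTM1 (ENSG00000161011), 1 of the 1099 genes listed. It was chosen by its TPM and count difference between the SSD and vehicle libraries, and the table itself holds genes of small p in the authors' own comparison of the same libraries. The SQSTM1 difference is therefore given as a description with no test.

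The study examined what SSD does to gene expression and RNA splicing in cancer cells. Poly(A) RNA was sequenced from 3 vehicle libraries and 3 SSD libraries of AGS cells labelled WT, collected after 24 h. The labels give 10 μM of a compound called L14-8, the methods give a lower dose of SSD, and the growth protocol names C4-2B, a prostate cancer line, so the dose is not settled and whether L14-8 is SSD is not stated. The labels do not say whether the libraries of a group came from separate cultures, and the study's general remark on independent experiments does not name the sequencing, so the p-values below may measure technical spread between libraries only. Of the markers listed for the cell types, 1 of 12 gastric epithelial genes, 0 of 10 prostate genes and 2 of 12 fibroblast and immune genes were in the table, too few to check the label AGS. Trefoil factor TFF1 fell from a mean of 74.3 to 46.5 TPM (log2 fold change -0.75, SE 0.153, adjusted p = 0.0142 in edgeR) without overlap between the groups. VIM, vimentin, rose from a mean of 5.73 to 10.6 TPM (log2 fold change 0.75, SE 0.127, adjusted p = 0.00688 in edgeR) without overlap between the groups, while COL1A1, a collagen chain, averaged 14.2 and 12.3 TPM under vehicle and SSD and did not pass (log2 fold change -0.25, adjusted p = 0.146 in edgeR). The summed TPM of both ran from 18.2 to 21.5 under vehicle and from 21.5 to 24.9 under SSD. Their part in the SQSTM1 values was not tested.

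p62 is a selective autophagy receptor. Its PB1 domain lets it form filaments and bind kinases, its ZZ zinc finger and TRAF6-binding stretch link it to signalling, a short motif binds LC3 on the growing autophagosome, and its UBA domain binds ubiquitin on the cargo. Another motif holds KEAP1, the adaptor that marks the transcription factor NRF2 for degradation, so p62 that accumulates can release NRF2. SQSTM1 is itself a known target of NRF2, and TFEB and TFE3, which switch on lysosome genes, are also known to act on it. The protein is degraded together with its cargo, so the RNA level measured here need not follow the protein level.

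In GENCODE release 29 (GRCh38) SQSTM1 lies on the plus strand of chromosome 5, from 179806398 to 179838078, with 16 annotated transcripts, of which 7 are protein coding. RefSeq (GRCh38.p14) gives 3 transcription starts for it, at 179806393, 179807009 and 179820905. The sequence before the last of these is shown because the 8-exon transcript ENST00000389805 begins near it, and it covers the part of that start's window upstream of the transcript, chr5:179820655-179820758 on the plus strand. In lower case throughout, it holds no match to either motif searched.
SQSTM1: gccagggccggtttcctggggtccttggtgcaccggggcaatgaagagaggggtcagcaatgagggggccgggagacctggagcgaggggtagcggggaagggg
The motifs were CACGTG, the core of the E-box that TFEB and TFE3 bind, and TGACNNNGC, the core of the antioxidant response element that NRF2 binds, each on both strands. CACGTG was found in 7.26% and TGACNNNGC in 13.3% of 35116 RefSeq promoter windows, each from 250 bases before a start to 50 after it. None of the 3 SQSTM1 windows held either, which says only that these letters are not there. Of the 38 other genes described below, 23 had a window, with CACGTG in 4 and TGACNNNGC in 5. A gene was counted if any of its windows matched, so these counts cannot be set directly against the shares of single windows. The first E-box stretch of each of those 4 genes is printed for comparison, with CACGTG in capitals. The windows of FNIP1, CLCN7 and CTSA each held 2 matches.
RRAGC, chr1:38859867-38859896, minus strand: aggtgattccggCACGTGacggggcaccac
FNIP1, chr5:131797175-131797204, minus strand: ccccgcccctgcCACGTGacgggacccgcc
CLCN7, chr16:1475058-1475087, minus strand: gccgtcgctcatCACGTGgccccgtcgcgc
CTSA, chr20:45891281-45891310, plus strand: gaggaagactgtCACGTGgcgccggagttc
The printed CACGTG begins 112, 175, 47 and 42 bases before the start of the gene, in that order. The genes with TGACNNNGC were CEBPB, CTSA, KLHL12, LIPA and RRAGC, and in RRAGC the motifs overlapped. A match is a description of the letters, not a binding site.

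The locus is crowded, and this bears on the counts. The exons of SQSTM1 cover 7654 bases, of which 1582 (20.7%) also lie in exons of MRNIP on the opposite strand and 105 (1.37%) in exons of MGAT4B, which runs away from the SQSTM1 5′ end on the minus strand. In ENST00000389805, of 2986 bases, the MRNIP overlap is 53.0% of the transcript, and none is shared with MGAT4B. Whether the authors' counting used strand is not stated, so reads of MRNIP, a gene with no row in the table, cannot be told apart from SQSTM1 reads there. The annotation also holds 1 pseudogene copy, SQSTM1P1 on chromosome 13.

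**Figure D1:**
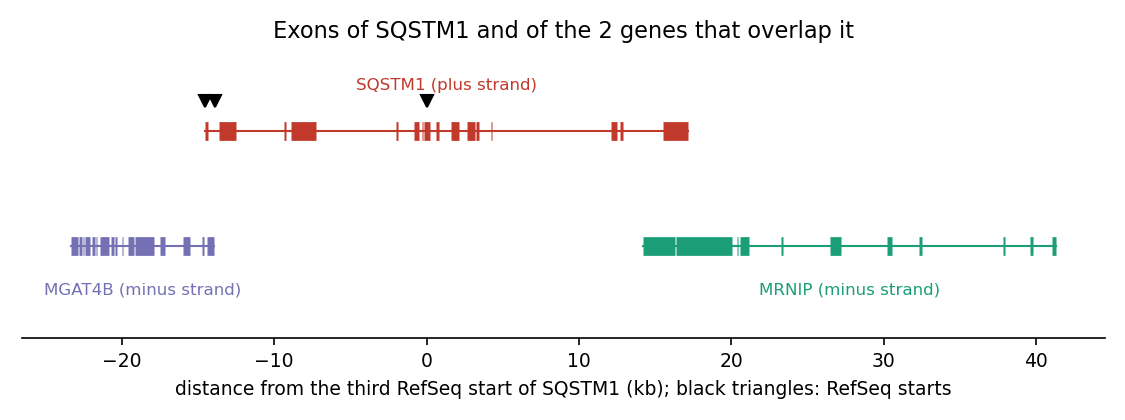
Map of the SQSTM1 locus with distance in kb from the last of its RefSeq starts on the horizontal axis, with boxes for the exons of SQSTM1, MGAT4B and MRNIP over all their transcripts and triangles for the 3 RefSeq starts. The exons of MRNIP overlap the 3′ part of SQSTM1 and cover 1582 of its 7654 exonic bases, while MGAT4B overlaps it by 105 exonic bases at the 5′ end.

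SQSTM1 was an abundant RNA, and its level was higher in all 3 SSD libraries. The TPM, the authors' read share corrected for gene length, was 225, 237 and 239.6 in the vehicle libraries. It was 441, 396 and 347 in the SSD libraries. The groups did not overlap, and the lowest SSD library lay 107.5 TPM above the highest vehicle library, more than the whole range within vehicle (15.0 TPM) or within SSD (93.6 TPM). The mean was 234 ± 7.98 TPM under vehicle and 394 ± 46.8 TPM under SSD (SD, n = 3 each), a ratio of 1.69. The SSD libraries stood at 1.89, 1.69 and 1.49 times the vehicle mean. In a bulk sample more RNA in every cell and much more in some of the cells cannot be told apart.

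The deposited estimated counts come from the same libraries as the TPM and are not a second measurement. They were 6184, 8633 and 6986 under vehicle and 11636, 10870 and 8754 under SSD, before any correction for library size. On a whole-library scale, taken from the ratio of counts to TPM over the table, they became 6443, 6707 and 6539 under vehicle and 12569, 11607 and 10020 under SSD. This scale ties the counts to TPM, so the likeness of these counts and of their fitted fold change to TPM was built in. The fitted log2 fold change was 0.80 (SE 0.0706), and the log2 ratio of mean TPM was 0.75. Counting error alone was 1.27% at the lowest count, well under the coefficient of variation of 3.42% within vehicle and 11.9% within SSD. SQSTM1 thus varied more among the SSD libraries, where replicate 3 was the lowest. Among 381 genes of at least 100 TPM the median coefficient of variation was 3.76% within vehicle and 4.93% within SSD, and 28 of them varied more than SQSTM1 within SSD.

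**Figure D2:**
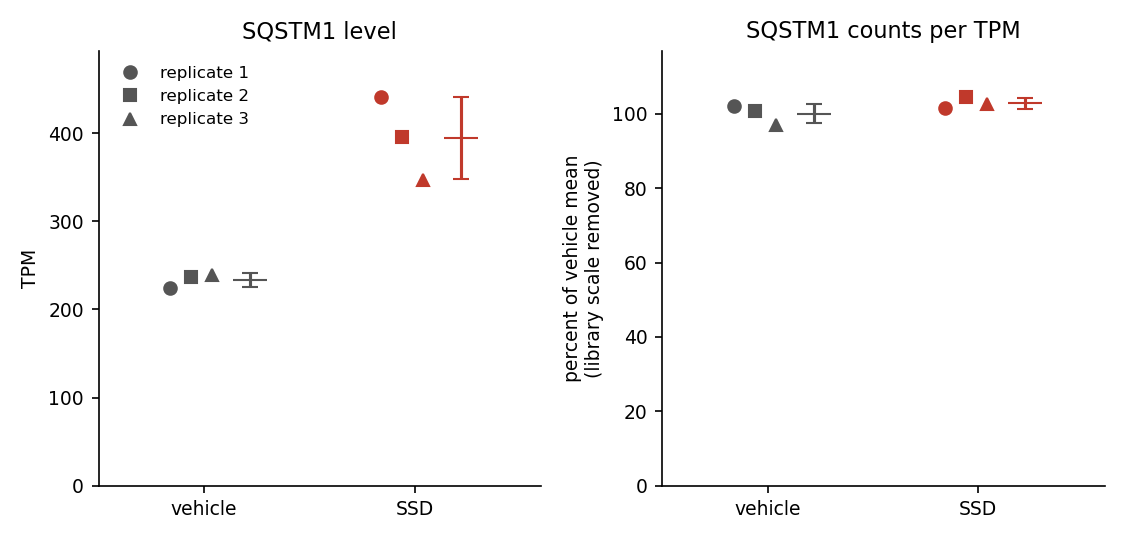
SQSTM1 by library, with TPM on the left axis panel and counts per TPM as percent of the vehicle mean on the right, for 3 vehicle and 3 SSD libraries (symbols mark replicates, bars the mean ± SD). The SSD libraries sit at 347 to 441 TPM, all above the vehicle libraries at 225 to 239.6, whereas counts per TPM overlap between the groups.

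The ratio of counts to TPM is built from the same columns that chose the gene and is given as a description. Where TPM is computed with the lengths of the transcripts assigned to each gene, this ratio follows their mean length, and it would move if longer or shorter SQSTM1 transcripts took a larger share. With the library scale removed it was 102%, 101% and 97.1% of the vehicle mean in the vehicle libraries and 102%, 104% and 103% in the SSD libraries. The groups overlapped. The SSD mean was 103% ± 1.47 against 100% ± 2.56 (SD, n = 3 each). Among 795 genes of at least 20 TPM in every library the SSD value ran from 94.0% to 106% of vehicle between the 5th and 95th percentiles, and 114 of them exceeded that of SQSTM1. Individual transcripts were not analysed here.

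SQSTM1 ranked higher in the table under SSD. By TPM it was at places 218, 206 and 204 of 1099 under vehicle and 122, 133 and 143 under SSD, and its share of all TPM of a library went from between 0.0225% and 0.0240% to between 0.0347% and 0.0441%. Its log2 fold change of 0.80 was exceeded by 9 genes, in a table whose median was -0.14 and whose values ran from -1.48 to 0.90. All 9 were less abundant. Of the 160 genes with a higher mean TPM, 0 had a larger log2 fold change in either direction.

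**Figure D3:**
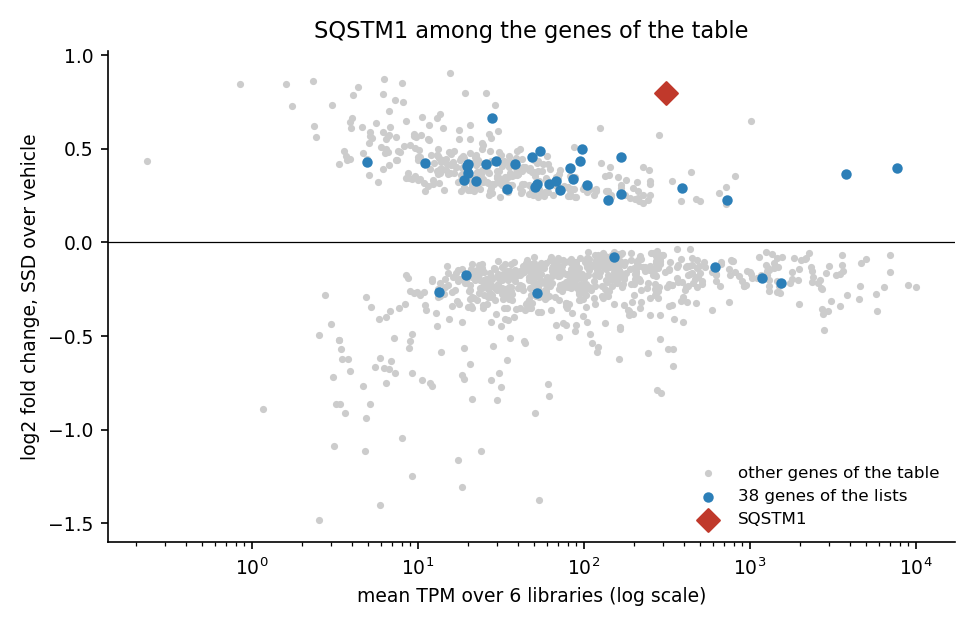
Log2 fold change of SSD over vehicle against mean TPM (log axis) for the 1099 genes of the table, with SQSTM1 and the genes of its lists marked. SQSTM1, at 0.80, lies above each of the 160 genes to its right.

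Genes of the p62 pathway were taken from 7 lists holding 261 names besides SQSTM1, and 38 of them were in the table. The lists were chosen with earlier results of these data known, which may favour genes that rose. At an adjusted p under 0.05, 31 of the 38 rose and 1 fell (quasi-likelihood test of edgeR, Benjamini-Hochberg adjusted over 11289 genes, as for each adjusted p given). By the same test 33.8% of all 1099 genes were higher, 19.5% were lower and 53.2% passed in either direction. The median log2 fold change was 0.33 over the 38 and -0.14 over the table. The table was selected for change. Of its 387 genes above 0, 95.9% passed the test, while of its 712 genes below 0 only 214 passed. A lower gene was thus called less often, and 7 of the 38 were below 0, the 1 that passed among them. These counts therefore describe which directions the listed genes took and not how often genes of a pathway changed. In TPM the groups did not overlap with SSD above in 31 of the 38, against 32.2% of the table, and with SSD below in 4, against 44.2%. Only 14 of the 38 passed as higher in limma on log2 TPM, and 20 did without vehicle replicate 2. With TMM the split of the table was 385 higher and 87 lower, against 371 and 214 on the whole-library scale.

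None of the 21 other autophagy receptors and their relatives was in the table, among them NBR1, so nothing can be said of their levels. The same holds for MAP1LC3B and GABARAPL1, which encode the ATG8 proteins that p62 binds, for KEAP1, for TRAF6, a ubiquitin ligase p62 recruits, and for TFEB.

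Of 49 genes of autophagosome formation, 5 were in the table and 4 rose. ULK1, the kinase that starts autophagy, was at 20.9, 18.6 and 20.1 TPM without SSD and 26.6, 24.7 and 24.2 TPM with it (log2 fold change 0.33, SE 0.0567, adjusted p = 0.00740). WIPI1, which reads the lipid PI3P on the forming membrane, was at 37.1, 32.5 and 30.7 TPM without SSD and 42.9, 44.0 and 42.4 TPM with it (log2 fold change 0.42, SE 0.0703, adjusted p = 0.00688). Neither gene's groups overlapped, and each rise was smaller than that of SQSTM1. ATG13, a ULK1 complex subunit, rose from a mean of 48.4 to 55.8 TPM (log2 fold change 0.31, adjusted p = 0.00641), and EPG5, a tether for fusion with lysosomes, from 4.26 to 5.68 TPM (0.43, adjusted p = 0.00560). ATG4A, a protease of ATG8 proteins, averaged 14.8 TPM under vehicle and 12.2 TPM under SSD and did not pass (log2 fold change -0.27, adjusted p = 0.261). The groups of ATG4A did not overlap, with SSD below. The median of the 5 was 0.33.

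Of 39 listed genes of the KEAP1-NRF2 pathway, 9 were in the table, and 6 of them passed as higher. As lower 0 passed, and 3 were below 0 without passing (median of the 9, 0.29). HMOX1, heme oxygenase 1, was at 23.7, 21.1 and 21.3 TPM without SSD and 38.2, 36.8 and 27.7 TPM with it (log2 fold change 0.66, SE 0.119, adjusted p = 0.00887). SRXN1, sulfiredoxin, was at 40.6, 41.7 and 40.6 TPM without SSD and 55.4, 57.2 and 55.7 TPM with it (log2 fold change 0.46, SE 0.0498, adjusted p = 0.00137). NQO1, a quinone reductase, was at 344, 368 and 361 TPM without SSD and 420.0, 406 and 434 TPM with it (log2 fold change 0.29, SE 0.0421, adjusted p = 0.00380). In all 3 the SSD libraries lay above the vehicle libraries, also at their lowest. The ferritin chains were among the most abundant RNAs of the table. FTL rose from a mean of 6618 to 8845 TPM (log2 fold change 0.40, adjusted p = 0.00380) and FTH1 from 3382 to 4203 TPM (0.37, adjusted p = 0.00282). SLC7A11, the cystine transporter, rose from 65.2 to 78.7 TPM (0.28, adjusted p = 0.0119). The gene of NRF2 itself, NFE2L2, was at 153, 156 and 156 TPM without SSD and 140.5, 147 and 155 TPM with it. Its groups overlapped, and it did not pass (log2 fold change -0.08, SE 0.0463, adjusted p = 1, and a log2 fold change of 0.01 with DESeq2 size factors). MAFK, a partner of NRF2 on DNA, and TXN, thioredoxin, did not pass either (log2 fold changes -0.17 and -0.13, adjusted p = 0.253 and 0.373). The groups of MAFK did not overlap, with SSD below, while those of TXN overlapped. The list does not hold every gene linked to NRF2. Of glutathione S-transferase genes outside it, GSTM4 was lower (log2 fold change -0.22, adjusted p = 0.0379). GSTM3 did not pass (-0.17, adjusted p = 0.0586). GSTM4 and GSTM3 were picked after their values were seen.

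TFEB/TFE3 and lysosome targets gave the longest list in the table, 17 of 62 names. All 17 passed as higher, against 33.8% of all 1099 genes, in a table selected for change. Their log2 fold changes were 0.23 to 0.49 with a median of 0.34. TPP1, a lysosomal peptidase, was at 45.2, 48.7 and 46.1 TPM without SSD and 58.6, 62.8 and 64.3 TPM with it (log2 fold change 0.49, SE 0.0591, adjusted p = 0.00184). MANBA, β-mannosidase, was at 27.6, 24.5 and 24.8 TPM without SSD and 30.5, 32.6 and 36.2 TPM with it (log2 fold change 0.44, SE 0.0698, adjusted p = 0.00559). CTSA, protective protein cathepsin A, was at 79.8, 83.1 and 79.4 TPM without SSD and 111, 109 and 109 TPM with it (log2 fold change 0.43, SE 0.0483, adjusted p = 0.00151). These too were separated by group in every library. FNIP1 (a folliculin partner) and LIPA (lysosomal acid lipase) had log2 fold changes of 0.43 and 0.42 (adjusted p = 0.00397 and 0.0134). Others among the 17 were FLCN, ASAH1, CLCN7, LAMP2, HEXA, GLB1, CTSB, SCARB2 and PSAP, which encode folliculin, lysosomal hydrolases, membrane proteins and the saposin precursor. None of the 17 reached the log2 fold change of SQSTM1. The calls were not equally stable. TPP1 and CTSA passed under all 16 alternatives, MANBA under 14 and GLB1 under 11. LAMP2 and LIPA passed under 10, PSAP under 9 and SCARB2 under 8.

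The remaining lists were thin and mixed. Of 35 signalling partners and kinases 2 were in the table. RRAGC, a Rag GTPase that places mTORC1 on lysosomes, rose from a mean of 17.5 to 22.5 TPM (log2 fold change 0.37, adjusted p = 0.0361). The RRAGC rise passed under only 8 of 16 alternatives. NFKB2 averaged 57.7 TPM under vehicle and 46.5 TPM under SSD without passing (-0.27, adjusted p = 0.0670), though its groups did not overlap, with SSD below. Of 29 genes of ubiquitin and aggregate handling 4 were in the table. The ubiquitin ligase TRIM21 and the ligase adaptor KLHL12 rose (0.42 and 0.29, adjusted p = 0.0205 and 0.0110), but passed under only 9 and 11 of 16 alternatives. RPS27A, which encodes ubiquitin fused to a ribosomal protein, fell from 1649.6 to 1447 TPM without overlap between the groups (-0.21, adjusted p = 0.0247) but passed under only 5 of 16 alternatives. Of 26 genes of the ATF4 stress response only CEBPB, a transcription factor, was in the table, and it rose from 80.1 to 113 TPM (0.50, adjusted p = 0.00397).

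The profiles closest to that of SQSTM1 were sought over all 6 libraries. Each gene's log2 TPM was centred on its mean, and the root mean square difference from SQSTM1 was taken for 1085 genes with at least 100 counts on average. The median difference was 0.454, and the 5 smallest belonged to FGA (0.0800), UAP1L1 (0.110), H1-10 (0.119), HMOX1 (0.122) and JAK2 (0.138), with the next gene at 0.143. FGA, the fibrinogen α chain, was at 11.1, 11.4 and 11.1 TPM without SSD and 19.9, 16.9 and 14.8 TPM with it. As for SQSTM1, its level was highest in SSD replicate 1 and lowest, within SSD, in replicate 3. UAP1L1 averaged 4.45 and 6.77 TPM under vehicle and SSD, and H1-10, a linker histone, 98.9 and 151 TPM. JAK2, a cytokine receptor kinase, averaged 1.79 and 3.07 TPM. The measure includes the difference between the groups, so it favours genes of a like fold change and is given as a description. Within SSD the order of the libraries was not shared by the p62 lists, since of the 31 genes that rose the lowest SSD value was in replicate 3 in 11, in replicate 1 in 18 and in replicate 2 in 2.

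**Figure D4:**
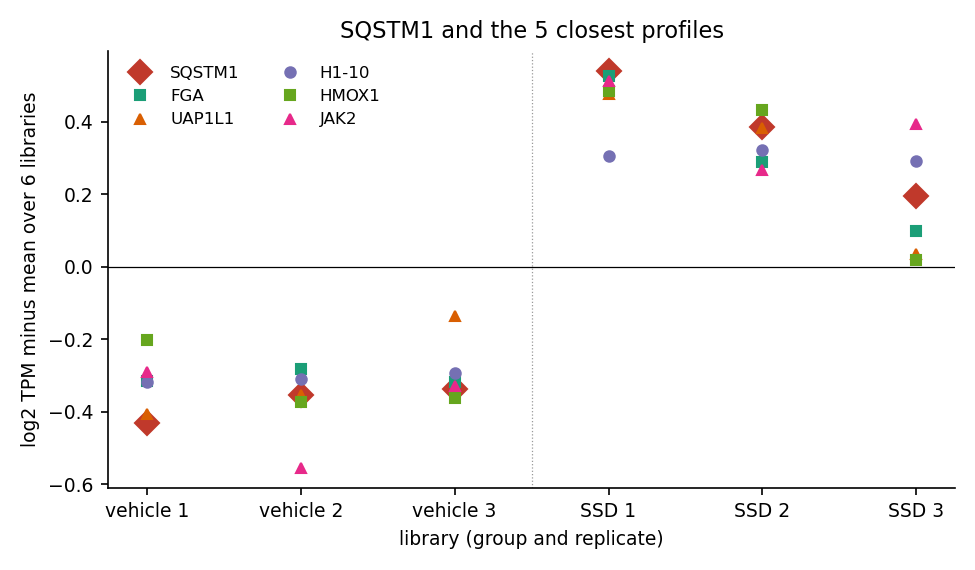
Centred log2 TPM in each of the 6 libraries for SQSTM1 and the 5 genes with the closest profiles. All 6 genes lie below 0 in the vehicle libraries and above 0 in the SSD libraries.

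Of 75 annotated genes within 1 Mb of SQSTM1, 26 of them protein coding, MGAT4B alone was in the table. MGAT4B (ENSG00000161013, chr5:179797597-179806952, minus strand) encodes a glycosyltransferase that branches N-glycans. It was at 117, 129.5 and 133 TPM without SSD and 148, 159 and 150.4 TPM with it. The groups did not overlap, and the gene rose from 127 ± 8.47 to 153 ± 6.01 TPM (SD, n = 3 each, log2 fold change 0.28, SE 0.0545, adjusted p = 0.0127). This step was smaller than that of SQSTM1.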

How the data were processed

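Poly(A) RNA libraries of AGS cells, 3 vehicle and 3 SSD, were analysed from a table of 1099 genes. Columns were matched to samples by the names in their headers and the sample titles, and 0 columns of per-sample values were left unmapped. The deposited values are estimated counts (33.5% not whole, rounded here before testing) and TPM, which the authors scaled to whole libraries. The table held 30.1% to 33.1% of the TPM and 3084337 to 4640114 counts per library, which is not the full depth. The authors' p-values, adjusted p-values, fold changes, calls and group means also stand in the table. Only the number of genes tested, 11289, was taken from them. The build is GRCh38.p13 in the submitters' processing notes, and the aligner and counting program are not given in the sources used here.

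Libraries were put on a whole-library scale, the median ratio of counts to TPM, because TMM takes most genes as unchanged and the table was chosen for change. Genes other than SQSTM1 were tested with the quasi-likelihood test of edgeR 4.0.16 in R 4.3.3, with Benjamini-Hochberg adjustment over 11289 genes, with genes that are not listed assumed to rank after those that are, and called at an adjusted p under 0.05. No filter was needed, as the smallest mean was 59 counts, and 25 genes had no symbol. The test was checked on simulated counts with as many rises as falls and a known library scale. A table chosen for change differs from that setting, so the check does not bear on calls that moved with the scale. Alternatives were TMM, DESeq2 1.42.0 size factors and Wald test, total counts, log2 TPM with a pseudocount of 1 or 0.1 in limma 3.58.1, adjustment over the table alone, a replicate block and each library left out. SQSTM1 and the lists were chosen with earlier results of these data known. Named were list members that passed, up to 6 per list and direction by size of change, those that did not where 6 or fewer, 7 p62 partners where in the table, the 5 closest profiles, and table genes within 1 Mb. Positions came from GENCODE release 29 (GRCh38) and promoter windows from RefSeq (GRCh38.p14), matched by symbol. A few genes that the rule would name are not reported here.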

Additional observations from a re-analysis of the deposited data

How the results depend on the processing

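The SQSTM1 log2 fold change of 0.80 lay between 0.72 and 0.89 under the 16 alternatives. The number of list genes that rose, 31, was 14 with limma on either pseudocount, 20 with the replicate block and 20 to 31 with 1 library left out, lowest at 20, 22 and 21 without vehicle replicate 2, vehicle replicate 3 and SSD replicate 2. The number that fell, 1, was 0 with TMM, DESeq2 size factors, total counts, limma or the block, 2 with the Wald test, 6 adjusted over the table alone and 0 to 2 with 1 library left out. Table genes higher, 371, were 114 with limma on log2(TPM + 1), 115 on log2(TPM + 0.1), 194 with the block and 169 to 382 with 1 library left out. Table genes lower, 214, were 87 with TMM, 86 with DESeq2 size factors, 126 with total counts, 75 and 73 with limma on the 2 pseudocounts, 94 with the block, 580 adjusted over the table alone and 78 to 284 with 1 library left out. Without vehicle replicate 2, vehicle replicate 3 and SSD replicate 2, the table gave 169, 228 and 186 genes higher and 78, 93 and 79 lower. The cause of these shifts was not tested. Fits with 1 library left out also had a smaller sample, and the adjustment over the table alone another number of genes adjusted over. HMOX1, SRXN1, FTL, FTH1, CTSA, TPP1 and CEBPB were among those that passed under all 16 alternatives, RRAGC and SCARB2 under 8 and RPS27A under 5. NFE2L2 had a log2 fold change of 0.01 with DESeq2 size factors. The scales shifted the median of all genes by 0.05 to 0.09. Deviations of same-numbered libraries correlated at -0.06, 0.04 and 0.02, and those of other pairs at -0.14 to 0.11. These values show no pairing by replicate number but cannot exclude it, with 3 libraries per group and genes chosen for change. The table is a selection on the outcome, so genes without a row cannot be called unchanged.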

Other observations

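The table's own pathway annotation places SQSTM1 in 8 pathways, and the other table genes of these did not move one way. In necroptosis 8 of 12 other genes rose and 0 fell, with a median log2 fold change of 0.32. They included JAK2, JAK1, STAT2 and STAT6, signal carriers of cytokines and interferons, the ferritin chains FTL and FTH1, and CAMK2D, with STAT2 (0.55, adjusted p = 0.00811) and STAT6 (0.31, adjusted p = 0.00813) in the quasi-likelihood test of edgeR, Benjamini-Hochberg adjusted. In osteoclast differentiation 6 of 9 rose and 1 fell, and in autophagy 6 of 11 rose and 1 fell. Of the 11 autophagy genes 5 were below 0, and in 4 the groups did not overlap, with SSD below. In mitophagy 1 of 4 rose and 1 fell, and in fluid shear stress and atherosclerosis 5 of 17 rose and 5 fell. In cellular senescence 3 of 11 rose and 5 fell, and in Shigella infection 3 of 19 rose and 8 fell. In amyotrophic lateral sclerosis 5 of 36 rose and 9 fell. Of these 36 genes 31 were below 0, and in 20 the groups did not overlap, with SSD below. Over all 1099 genes 33.8% were higher and 19.5% lower by the same test, and the lower calls depend on the scale, with 214 over the table here and 87 with TMM. The pathways share genes, and the genes given by name were picked after their values were seen.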
